A study of Mus musculus with 12 samples.

Results

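Mitochondrial ribosomal proteins were examined in mouse embryonic fibroblasts (MEF) treated with halofuginone (HF). The members were the protein-coding genes whose symbol starts with Mrpl or Mrps followed by a digit, 78 of 21422 protein-coding genes and of 55536 gene IDs counted. By place in the ribosome, 51 members belong to the large subunit and 26 to the small subunit. Mrps18a and Mrps30 were counted with the large subunit, where these proteins sit despite their symbols. Mrps36, which belongs to the 2-oxoglutarate dehydrogenase complex, was counted in neither. Another 5 gene IDs with such symbols are pseudogenes and were left out. Cells of the HF groups spent 6 h with 100 nM halofuginone in high-glucose DMEM with dialyzed serum, and control cells spent 6 h in the same medium without the drug. Each treatment was measured by sequencing of fragmented total RNA and of ribosome footprints, with 3 libraries in each of the 4 groups. The labels do not say whether the 3 libraries of a group came from separate cultures, so a p-value sets a difference against the spread among libraries, which may be technical. Genotype, clone and passage are not stated in the sources used here.

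Mitochondrial ribosomes translate the few proteins encoded in mitochondrial DNA, all of them subunits of the respiratory chain and the ATP synthase. Their protein components are encoded in the nucleus, translated by cytosolic ribosomes and imported, and both subunits are assembled around mitochondrially encoded rRNA. Some of these proteins have bacterial counterparts and others are specific to mitochondrial ribosomes. Halofuginone inhibits the prolyl-tRNA synthetase activity of Eprs, and the uncharged tRNA activates the eIF2 kinase GCN2. Footprints are mRNA pieces covered by cytosolic ribosomes, so a member's footprints reflect how many ribosomes were on its mRNA. Neither the speed of these ribosomes nor the protein made was measured. More footprints, or more footprints relative to RNA, are therefore not read as more protein made.

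RefSeq promoter windows (build GRCm38.p6, 250 bases before to 50 after an annotated start) matched 69 of the 78 members, in 75 windows. Counted by gene, so that several starts of 1 gene count once, 37.7% of the 69 members held the motif CCGGAAG of ETS factors such as GABP. Over all 27025 genes with a window the share was 9.93%, and over protein-coding genes 12.9%. The NRF1 motif GCGCANGCG was in 23.2% of the members, against 7.03% of all genes and 9.63% of protein-coding genes. The YY1 motif AANATGGCG was in 15.9% of the members, against 2.76% of all genes and 3.64% of protein-coding genes. The E-box CACGTG was in 7.25% of the members, near the 8.09% of all genes and 8.91% of protein-coding genes. The composite motif TGATGNAA of ATF4 and C/EBP factors was in 0 of 69 members, against 4.51% of all genes and 4.13% of protein-coding genes. With such low shares, 0 of 69 does not clearly set the members apart. Both strands were searched, and matches to different motifs may overlap. A match describes the letters in the window and not a bound site. The following stretches lie directly before the starts of Mrpl34 and Mrpl43, the members with the lowest RNA fold changes, and of Mrpl12, the member with the highest footprint fold change. Capitals mark motif matches, and each stretch ends at the base before the annotated start.
Mrpl34 (chr8:71464708-71464925, plus strand): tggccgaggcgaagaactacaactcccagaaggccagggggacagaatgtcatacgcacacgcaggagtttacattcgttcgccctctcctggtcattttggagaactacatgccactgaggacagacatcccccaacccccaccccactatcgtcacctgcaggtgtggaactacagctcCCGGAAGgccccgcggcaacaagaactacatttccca
Mrpl43 (chr19:45006443-45006557, minus strand): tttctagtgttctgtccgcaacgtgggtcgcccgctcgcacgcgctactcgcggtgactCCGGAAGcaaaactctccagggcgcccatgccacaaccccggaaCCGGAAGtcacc
Mrpl12 (chr11:120484387-120484636, plus strand): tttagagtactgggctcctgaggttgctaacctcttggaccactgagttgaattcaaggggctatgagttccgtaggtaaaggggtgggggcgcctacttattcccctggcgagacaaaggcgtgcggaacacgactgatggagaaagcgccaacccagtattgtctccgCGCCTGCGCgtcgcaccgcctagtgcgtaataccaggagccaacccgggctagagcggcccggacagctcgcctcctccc
Mrpl34 had 1 ETS match, beginning 37 bases before the start. Mrpl43 had 2 ETS matches, beginning 56 and 12 bases before the start. Its stretch spans the 115 bases up to a start of Twnk, the mitochondrial DNA helicase, which is transcribed in the opposite direction. Mrpl12 had an NRF1 match on the minus strand, beginning 80 bases before the start. A start of an oppositely transcribed protein-coding gene lay within 1000 bases of a member's start for 24 of 69 members (34.8%), against 8.48% of 17492 protein-coding genes. The members Mrpl46 and Mrps11, 1 of each subunit, form such a pair with starts 42 bases apart. No member's window had an annotated start of the terminal oligopyrimidine type, a C followed by 4 pyrimidines, in 75 windows. Of 72 windows of cytosolic ribosomal protein genes, 14 had one, and so did 2.21% of windows of protein-coding genes. With that low share, 0 of 75 does not set the members apart from protein-coding genes in general. Most windows of cytosolic ribosomal protein genes lacked one too, so annotated starts may miss such sequences.

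Total counts ranged over 1017651 to 1697554 in HF RNA libraries, 718096 to 1295434 in control RNA libraries, 562794 to 1958356 in HF footprint libraries and 724609 to 2527791 in control footprint libraries. The median count of a member in 1 library was 32.5 to 57.5 in RNA and 28 to 164 in footprints. Of counts between 1 and 10, 80.3 to 83.5% in RNA and 67.1 to 80.9% in footprints were even numbers, so a count may overstate the number of independent reads. The non-coding RNA Gm42418 took 7.35 to 9.48% of counts in HF RNA libraries and 11.8 to 13.7% in control RNA libraries. In footprints it took 0.0634 to 0.100% in 5 libraries and 1.12% in control library 1. Its part in the results below was not tested. The fibroblast markers Col1a1, Fn1 and Vim were counted in all groups, while Lum and Postn were at 0 in all 12 libraries. Dcn was at 0 in all RNA libraries and had at most 5 counts in footprint libraries. Col3a1 had 0 to 8 counts in RNA and 0 to 16 in footprint libraries. The summed level of 12 fibroblast markers was 9365 to 9684 CPM (counts scaled by sequencing depth) in HF RNA and 7790 to 8155 CPM in control RNA. In footprints it was 12379 to 12711 CPM in HF and 15954 to 16922 CPM in control libraries. Of the markers tested in RNA, 1 of 7 rose (Fn1, by 1.69 on the log2 scale) and 4 fell (Pdgfrb, S100a4, Col1a1 and Col1a2), with a median log2 fold change of -0.68. In footprints 2 of 8 markers rose and 5 fell, with a median of -0.62. For 14 markers of other cell types the sum was 15.7 to 33.4 CPM in HF RNA, 17.9 to 42.7 CPM in control RNA, 25.1 to 60.6 CPM in HF footprints and 59.0 to 85.8 CPM in control footprints. Krt8, Pecam1, Myog, Myh3, Hba-a1 and Pou5f1 among them were at 0 in all 12 libraries. The neuronal marker Tubb3 was counted in all 12, with 6 to 51 counts in RNA and 15 to 170 in footprints. Its log2 fold change was -0.74 in footprints (edgeR adjusted p = 0.017) and -0.81 in RNA, which did not pass (edgeR adjusted p = 0.103).

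RNA of the mitochondrial ribosomal proteins took a smaller share of protein-coding counts in HF cells for both subunits, while in footprints the share of the small subunit was lower without overlap between libraries and that of the large subunit overlapped with control. All members together took 0.389% ± 0.0116 of protein-coding RNA counts in HF cells and 0.524% ± 0.0108 in control cells (SD, n = 3 each), 25.7% lower in HF. In footprints they took 0.505% ± 0.0141 in HF cells and 0.549% ± 0.0067 in control cells, 7.91% lower in HF. In bulk RNA, fewer cells of a type and less RNA per cell cannot be told apart, and these shares say nothing of the total RNA per cell.

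Large subunit members took 0.272% ± 0.0113 of protein-coding RNA counts in HF cells and 0.361% ± 0.0049 in control cells (SD, n = 3 each), 24.6% lower in HF, with no overlap between libraries. Small subunit members took 0.117% ± 0.0026 in HF RNA and 0.163% ± 0.0067 in control RNA, 28.1% lower in HF, again with no overlap. In footprints, the large subunit took 0.370% ± 0.0103 in HF cells and 0.382% ± 0.0061 in control cells, 3.09% lower in HF, and the libraries overlapped. The member Mrpl12 alone held 364 of 6882, 100 of 2360 and 90 of 1975 large subunit footprint counts in HF libraries 1, 2 and 3. In control libraries 1, 2 and 3 it held 161 of 9143, 110 of 6198 and 49 of 2635. The share of the large subunit without Mrpl12 was not tested, so the overlap may depend on this gene. The small subunit took 0.135% ± 0.0038 of footprint counts in HF cells and 0.166% ± 0.0075 in control cells, 18.9% lower in HF, without overlap.

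The ratio of summed large to summed small subunit counts within a library needs no scaling between libraries. In footprints it was 2.75, 2.74 and 2.74 in HF libraries 1, 2 and 3, against 2.36, 2.38 and 2.16 in control libraries 1, 2 and 3. Every HF footprint library was above every control library. In RNA the ratio was 2.29, 2.23 and 2.45 in HF libraries and 2.28, 2.24 and 2.14 in control libraries, and the groups overlapped. The log2 ratio of HF minus control was 0.26 ± 0.056 in footprints and 0.07 ± 0.058 in RNA, where the error is the pooled SD over libraries. A ratio over members gets no p-value here, and it shows unequal change of the subunits, not which one changed.

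**Figure D1:**
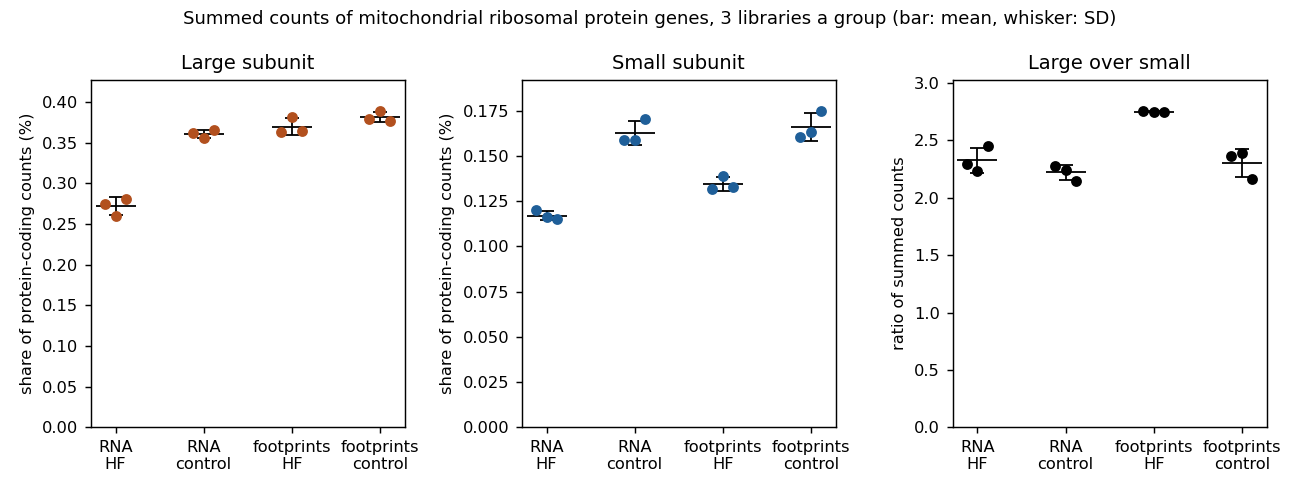
The left and middle plots show the share of protein-coding counts (%) taken by large and small subunit members in each library, and the right plot their ratio; points are libraries, bars are means and whiskers SD (n = 3). The RNA shares of both subunits are lower in HF than in control libraries, and the footprint ratio of 2.74 to 2.75 in HF lies above 2.16 to 2.38 in control libraries.

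Of the 73 members tested in RNA with edgeR's quasi-likelihood test, 2 were higher in HF (2.74%) and 17 were lower (23.3%) at a Benjamini-Hochberg adjusted p under 0.05. Over all 9145 features tested, 22.2% were higher and 21.4% lower. The share of members that fell was thus near that of all features, and the share that rose was below it. The median log2 fold change was -0.35 over the members, -0.32 over the large subunit, -0.48 over the small subunit and -0.02 over all features. Among the 54 members that did not pass, 41 had fold changes below 0, in a range of -1.07 to 0.66. By subunit, 1 of 48 large subunit members rose and 12 fell, and 1 of 25 small subunit members rose and 5 fell. Mrpl23, Mrpl53 and Mrps36 were tested in no comparison, because their counts were too low, and Mrpl27 and Mrps33 were tested in footprints only.

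Mrpl34 (ENSMUSG00000034880, chr8:71464926-71465753), a large subunit protein with a bacterial counterpart, had the lowest RNA fold change of the members. Its RNA was 1.76, 8.84 and 3.53 CPM in HF libraries, against 46.7, 49.3 and 48.3 CPM in control libraries. All HF libraries lay far below all control libraries, and the log2 fold change was -3.39 ± 0.44 (SE; edgeR adjusted p = 2.0e-09). Footprints on Mrpl34 were 19.7, 13.4 and 22.7 CPM in HF libraries and 49.1, 65.0 and 57.6 CPM in control libraries, a log2 fold change of -1.59 ± 0.29 (edgeR adjusted p = 4.68e-05). The groups did not overlap in either assay.

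Mrpl43 (ENSMUSG00000025208, chr19:45005014-45006442), a large subunit protein specific to mitochondrial ribosomes, had 16.7, 14.7 and 23.6 CPM in HF RNA and 79.7, 88.8 and 90.3 CPM in control RNA. Its log2 fold change was -2.18 ± 0.27 in RNA (SE; edgeR adjusted p = 2.51e-10). In footprints it had 29.8, 66.9 and 39.8 CPM in HF libraries and 87.2, 92.5 and 91.3 CPM in control libraries, a log2 fold change of -1.09 ± 0.24 (edgeR adjusted p = 0.000485). HF library 2 was the highest of the HF footprint libraries, and no HF library reached a control library in either assay. The gene shares 780 bases with Twnk, and reads in shared stretches cannot be told apart because the strand setting of the counting is not given. Twnk fell too, with log2 fold changes of -0.89 in RNA and -0.75 in footprints (edgeR adjusted p = 0.0023 and 0.0349).

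Mrpl42 (chr10:95480805-95501949), another mitochondria-specific large subunit protein, had 10.6, 15.7 and 17.7 CPM in HF RNA and 33.0, 46.5 and 38.9 CPM in control RNA. Its footprints were 45.6, 30.1 and 37.9 CPM in HF libraries and 78.2, 83.3 and 91.3 CPM in control libraries. The groups did not overlap in either assay. Its log2 fold changes were -1.39 ± 0.36 in RNA and -1.08 ± 0.23 in footprints (SE; edgeR adjusted p = 0.00122 and 0.000261).

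Mrps34 (chr17:24895120-24896289), a mitochondria-specific small subunit protein, had 13.2, 13.8 and 11.8 CPM in HF RNA and 44.3, 39.5 and 26.3 CPM in control RNA. Its footprints were 29.8, 20.1 and 20.9 CPM in HF libraries and 69.7, 53.3 and 47.8 CPM in control libraries. All HF libraries were below all control libraries, with log2 fold changes of -1.51 ± 0.38 in RNA and -1.21 ± 0.28 in footprints (SE; edgeR adjusted p = 0.000827 and 0.000623).

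Mrps12 (chr7:28739641-28741821), the counterpart of the bacterial decoding-centre protein S12, had 9.67, 3.93 and 7.06 CPM in HF RNA and 25.8, 16.9 and 30.4 CPM in control RNA. The RNA groups did not overlap, and the log2 fold change was -1.81 ± 0.50 (SE; edgeR adjusted p = 0.0022). Its footprints were 10.7, 13.4 and 15.2 CPM in HF libraries and 17.8, 23.3 and 35.1 CPM in control libraries. The footprint log2 fold change of -0.95 ± 0.43 did not pass (edgeR adjusted p = 0.0737), although the 3 HF libraries were the lowest of the 6.

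The other 12 members that fell in RNA had log2 fold changes of -1.25 to -0.54. They were, from the lowest, Mrpl44, Mrps6, Mrps24, Mrps15, Mrpl21, Mrpl2, Mrpl18, Mrpl12, Mrpl15, Mrpl39, Mrps18a and Mrpl20. Mrps6 (chr16:92058336-92112227), a small subunit protein, had the lowest adjusted p among them. It had 99.4, 64.8 and 79.5 CPM in HF RNA and 203.7, 145.2 and 215.3 CPM in control RNA, a log2 fold change of -1.22 ± 0.17 (SE; edgeR adjusted p = 7.89e-09). No HF library reached a control library. Mrps6 shares 29138 bases with Slc5a3, an inositol transporter gene. Slc5a3 fell too, with log2 fold changes of -1.57 in RNA and -1.69 in footprints (edgeR adjusted p = 7.45e-15 and 7.43e-11). Its part in the RNA, footprint and efficiency calls of Mrps6 was not tested. Other protein-coding genes that overlap these members did not fall in RNA. Wdfy1, which overlaps Mrpl44, rose by 2.61 (edgeR adjusted p = 0.000374). Ighmbp2, which overlaps Mrpl21 (0.25), and Tcp1, which overlaps Mrpl18 (-0.19), did not pass. Klc4 and Rsph9, which overlap Mrpl2 and Mrps18a, were not tested in RNA. Leaving out single libraries ended the calls of 5 of these 12. The RNA call of Mrpl44 ended without HF library 3 (log2 fold change -0.85) or control library 2 (-1.01). That of Mrpl21 ended without HF library 1 (-0.76) or control library 2 (-0.62). That of Mrpl39 ended without HF library 3 (-0.50), control library 2 (-0.64) or control library 3 (-0.74). That of Mrps18a ended without HF library 1 (-0.63), HF library 3 (-0.52) or control library 1 (-0.53). That of Mrpl20 ended without HF library 1 (-0.39), HF library 3 (-0.47) or control library 1 (-0.33). DESeq2 called none of Mrpl39 (-0.74), Mrps18a (-0.63) and Mrpl20 (-0.52), and without a filter on low counts Mrpl39 (-0.71) and Mrps18a (-0.61) did not pass.

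Mrps31 and Mrpl19 were the members that rose in RNA. Mrps31 (chr8:22410449-22429669), a mitochondria-specific small subunit protein, had 26.4, 43.2 and 28.8 CPM in HF RNA and 12.9, 12.7 and 23.1 CPM in control RNA. Its RNA log2 fold change of 1.00 ± 0.38 passed (SE; edgeR adjusted p = 0.0276), but not without HF library 2 (0.78), control library 1 (0.82) or control library 2 (0.88). Footprints on Mrps31 were 115.9, 133.8 and 87.2 CPM in HF libraries and 45.8, 41.7 and 68.8 CPM in control libraries. The groups overlapped in neither assay, and the footprint log2 fold change was 1.19 ± 0.22 (edgeR adjusted p = 3.88e-05). Mrpl19 (chr6:81957826-81965949), a large subunit protein with a bacterial counterpart, had 102.0, 60.9 and 80.1 CPM in HF RNA and 57.2, 52.2 and 52.5 CPM in control RNA. Its RNA log2 fold change was 0.58 ± 0.22 (edgeR adjusted p = 0.0279). The call ended with DESeq2 (adjusted p = 0.058), and without HF library 1 (0.43), HF library 3 (0.62), or control library 1 (0.63), 2 (0.56) or 3 (0.56). Mrpl19 overlaps Gcfc2, whose RNA rose by 1.28 on the log2 scale (edgeR adjusted p = 0.0329).

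In footprints, 12 of 75 members were higher in HF and 12 were lower (16% each), against 22.4% higher and 20.9% lower over all 8380 protein-coding genes tested. Both shares were below those of all genes. By subunit, 10 of 49 large subunit members rose (20.4%) and 7 fell (14.3%), while 2 of 26 small subunit members rose (7.69%) and 5 fell (19.2%). The median footprint log2 fold change was 0.09 over the large subunit and -0.30 over the small subunit, beside -0.02 over all genes tested. The difference of the 2 medians was 0.38, and it was above 0 in the planned fit and each alternative, 14 of 14 settings (0.28 to 0.47). With upper-quartile factors, 9 members were higher and 15 lower.

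**Figure D2:**
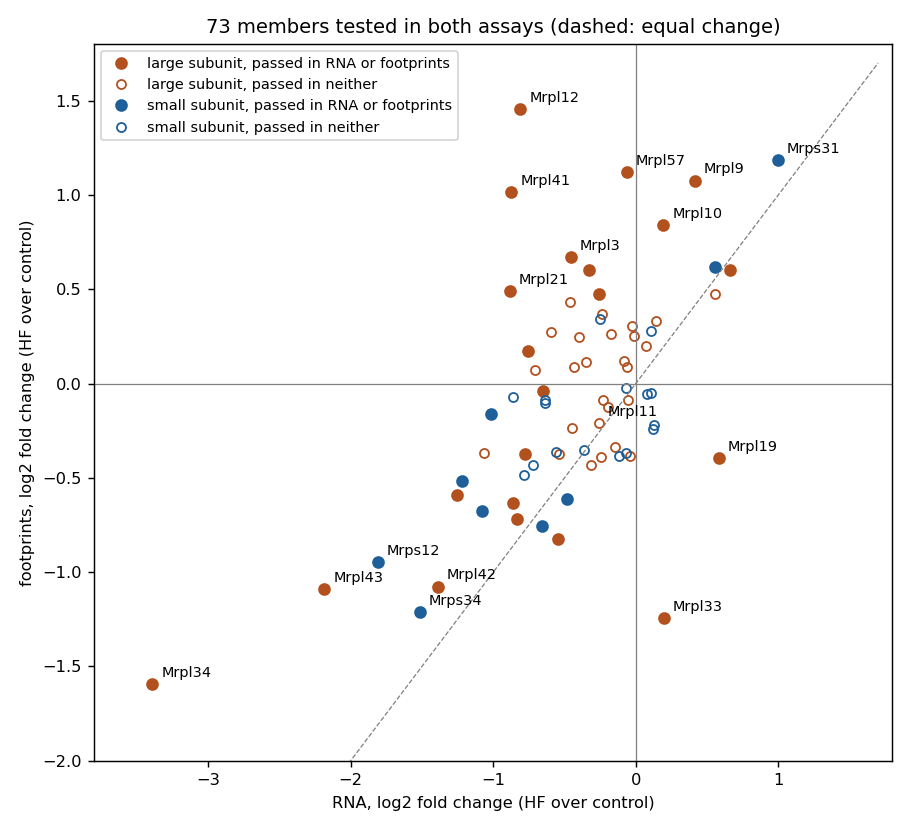
Each of the 73 members tested in both assays is placed by its log2 fold change (HF over control) in RNA on the x axis and in footprints on the y axis; filled points passed in at least 1 of the 2 assays, brown is the large and blue the small subunit, and the dashed line marks equal change. Mrpl34 and Mrpl43 lie low in both assays, Mrps31 high in both, and Mrpl12 low in RNA (-0.81) and high in footprints (1.46).

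The stalk of the large subunit, which contacts translation factors, is built from Mrpl12 on a base of Mrpl10 and Mrpl11. These 3 proteins had unlike values. Mrpl12 (ENSMUSG00000039640, chr11:120484637-120488754) had 98.5, 73.7 and 88.9 CPM in HF RNA, against 169.9, 136.7 and 150.2 CPM in control RNA. Its footprints were 204.8, 167.2 and 170.6 CPM in HF libraries, against 65.3, 67.4 and 68.8 CPM in control libraries. The groups did not overlap in either assay, and they lay in opposite orders. The log2 fold change was -0.81 ± 0.17 in RNA and 1.46 ± 0.17 in footprints (SE; edgeR adjusted p = 4.95e-05 and 1.96e-08). Footprints were thus 2.74-fold higher in HF and RNA 0.57 of control.

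Mrpl10 (chr11:97041582-97049213) had 125.8, 96.3 and 80.7 CPM in HF RNA and 72.5, 98.7 and 94.5 CPM in control RNA, which overlapped. Its RNA log2 fold change of 0.19 ± 0.19 did not pass (SE; edgeR adjusted p = 0.436). Mrpl10 footprints were 65.3, 58.5 and 68.2 CPM in HF libraries and 30.8, 39.2 and 39.3 CPM in control libraries, without overlap, a log2 fold change of 0.84 ± 0.24 (SE; edgeR adjusted p = 0.00591). The call ended without control library 1 (0.68). Mrpl11 (chr19:4962152-4966995) had 58.1, 28.5 and 56.5 CPM in HF RNA and 55.6, 57.8 and 60.9 CPM in control RNA. Its footprints were 57.9, 108.7 and 81.5 CPM in HF libraries and 82.7, 101.7 and 88.5 CPM in control libraries. Groups overlapped in both assays, and neither log2 fold change passed (-0.26 ± 0.25 in RNA and -0.21 ± 0.21 in footprints, SE; edgeR adjusted p = 0.419 and 0.448).

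Mrpl9 (chr3:94443154-94448708), a large subunit protein with a bacterial counterpart, had 123.2, 137.1 and 127.0 CPM of footprints in HF libraries and 66.1, 53.3 and 63.2 CPM in control libraries. The footprint log2 fold change was 1.08 ± 0.19 (SE; edgeR adjusted p = 1.81e-05). In RNA it had 104.7, 106.1 and 103.6 CPM in HF libraries and 95.8, 87.4 and 51.5 CPM in control libraries. The RNA libraries did not overlap either, but the log2 fold change of 0.42 ± 0.20 did not pass (edgeR adjusted p = 0.0782).

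Mrpl57 and Mrpl41, both mitochondria-specific, had few footprints. Mrpl57 (chr14:57826228-57829087) had 27.6, 20.1 and 34.1 CPM of footprints in HF libraries and 15.8, 12.9 and 5.62 CPM in control libraries, without overlap. Its footprint log2 fold change was 1.12 ± 0.41 (SE; edgeR adjusted p = 0.0275). The call ended without HF library 1 (1.11), HF library 3 (0.97), control library 2 (1.14) or control library 3 (0.88). RNA of Mrpl57 was 31.7, 37.3 and 40.0 CPM in HF libraries and 40.3, 47.9 and 27.3 CPM in control libraries, which overlapped. Mrpl57 overlaps the mitosis gene Ska3, whose footprints rose by 0.88 on the log2 scale. Mrpl41 (chr2:24972470-24975098) had 23.1, 20.1 and 45.5 CPM of footprints in HF libraries and 17.0, 14.1 and 8.43 CPM in control libraries. HF library 3 stood above the others, and the log2 fold change was 1.01 ± 0.41 (edgeR adjusted p = 0.0449). The call ended with DESeq2 (adjusted p = 0.064) and with upper-quartile factors (adjusted p = 0.065). It also ended when all genes, not only protein-coding ones, were tested (adjusted p = 0.051). Without HF library 3 the value was 0.63, and without control library 1, 2 or 3 it was 1.23, 1.02 or 0.82; none of these 4 passed.

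The other 7 members whose footprints rose were Mrpl3, Mrps18b, Mrpl1, Mrpl54, Mrpl21, Mrpl52 and the already described Mrpl10, with log2 fold changes of 0.48 to 0.84. Mrps18b was the small subunit protein among them, and Mrpl1 belongs to the mobile stalk at the side of the large subunit where tRNA leaves. Mrpl1 had 108.6, 110.4 and 125.1 CPM of footprints in HF libraries and 80.7, 70.5 and 71.6 CPM in control libraries, a log2 fold change of 0.60 ± 0.18 (SE; edgeR adjusted p = 0.00806). All HF libraries were above all control libraries. The call of Mrps18b (0.62) ended without HF library 2 (0.49). That of Mrpl54 (0.60) ended without HF library 1 (0.53), control library 1 (0.53) or control library 2 (0.56). That of Mrpl21 (0.49) ended with upper-quartile factors (0.41) and without HF library 2 (0.45) or 3 (0.37), or control library 2 (0.50) or 3 (0.35). That of Mrpl52 (0.48) ended with DESeq2 (0.47), with upper-quartile factors (0.39), without a filter on low counts (0.46) and without any 1 of 5 libraries. Those 5 were HF libraries 1 (0.43) and 2 (0.48) and control libraries 1 (0.38), 2 (0.49) and 3 (0.48).

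Mrpl33 (chr5:31613951-31622644), a protein of the large subunit with a bacterial counterpart, fell in footprints while its RNA log2 fold change of 0.20 ± 0.29 did not pass (SE; edgeR adjusted p = 0.611). Footprints on Mrpl33 were 24.2, 3.34 and 3.79 CPM in HF libraries and 32.8, 28.2 and 39.3 CPM in control libraries. HF library 1 lay close to the control libraries and HF libraries 2 and 3 far below. The HF values rest on 43 counts in library 1 and on 2 counts in each of libraries 2 and 3, which is near the floor. The footprint log2 fold change was -1.24 ± 0.43 (edgeR adjusted p = 0.0179), and it was -3.17 without HF library 1. The call ended without HF library 2 (-0.91) or HF library 3 (-0.95). RNA of Mrpl33 was 46.6, 39.3 and 35.9 CPM in HF libraries and 29.0, 46.5 and 32.6 CPM in control libraries, which overlapped. The long non-coding RNA gene Gm38424 covers all 8694 annotated bases of Mrpl33, and its part in these counts was not tested.

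Beside Mrpl34, Mrpl33, Mrps34, Mrpl43 and Mrpl42, the members whose footprints fell were Mrpl20, Mrps35, Mrpl18, Mrps24, Mrpl2, Mrps27 and Mrps6, with log2 fold changes of -0.82 to -0.52. Mrpl20 (chr4:155802878-155808831), a large subunit protein with a bacterial counterpart, had 88.3, 172.2 and 134.6 CPM of footprints in HF libraries and 208.0, 221.2 and 238.7 CPM in control libraries. HF library 1 was the lowest, and no HF library reached a control library. The log2 fold change of -0.82 was -0.52 without HF library 1, and the call held. Mrps35 (chr6:147042728-147070906), a mitochondria-specific small subunit protein, had 43.9, 46.8 and 41.7 CPM of footprints in HF libraries and 73.8, 71.7 and 80.05 CPM in control libraries, without overlap. Mrps27, a pentatricopeptide repeat protein of the small subunit, had 61.3, 65.2 and 81.5 CPM of footprints in HF libraries and 100.1, 102.9 and 109.5 CPM in control libraries, without overlap. Its footprint log2 fold change of -0.61 was -0.50 without HF library 1, which ended the call. The footprint call of Mrpl2 (-0.63) ended without HF library 1 (-0.50), control library 1 (-0.55) or control library 2 (-0.57). That of Mrps24 (-0.67) ended with DESeq2 (-0.66) and without HF library 1 (-0.55), HF library 2 (-0.62), control library 1 (-0.67) or control library 2 (-0.63).

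Of the 78 members, 31 passed in at least 1 comparison and 47 in none, 3 of which were tested in no comparison. Of the 73 members tested in both assays, 9 fell in RNA and in footprints (Mrpl2, Mrpl18, Mrpl20, Mrpl34, Mrpl42, Mrpl43, Mrps6, Mrps24 and Mrps34), and Mrps31 rose in both. The 9 are 12.3% of the members, near the 12.1% of all 7928 genes tested in both assays, while 1.37% of the members and 14.8% of all genes rose in both. Mrpl12 and Mrpl21 fell in RNA and rose in footprints, 2.74% of the members against 0.580% of all genes. In neither assay did 57.5% of the members pass, against 38.9% of all genes. The RNA and footprint libraries are separate, so neither comparison shares its libraries with the other.

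Translational efficiency was taken as the change of footprints relative to RNA in 1 model over all 12 libraries. Of 73 members, 9 were higher in HF (12.3%) and 1 was lower (1.37%), against 6.35% higher and 8.03% lower over all 7933 genes tested. The median log2 change was 0.29 over the members, 0.38 over 48 large subunit members, 0.19 over 25 small subunit members and 0.01 over all genes tested. Of the large subunit, 8 rose and 1 fell, and of the small subunit 1 rose and 0 fell, with 1 of 25 at an unadjusted p under 0.05. DESeq2 called 9 members higher and 0 lower. With TMM factors computed over all 12 libraries, 6 members were higher and 2 lower. Of the 9 that rose, 6 had fallen in RNA: Mrpl12, Mrpl21, Mrpl34, Mrpl39, Mrpl43 and Mrps6. RNA is the denominator of this measure, so a lower RNA value moves it up by construction.

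**Figure D3:**
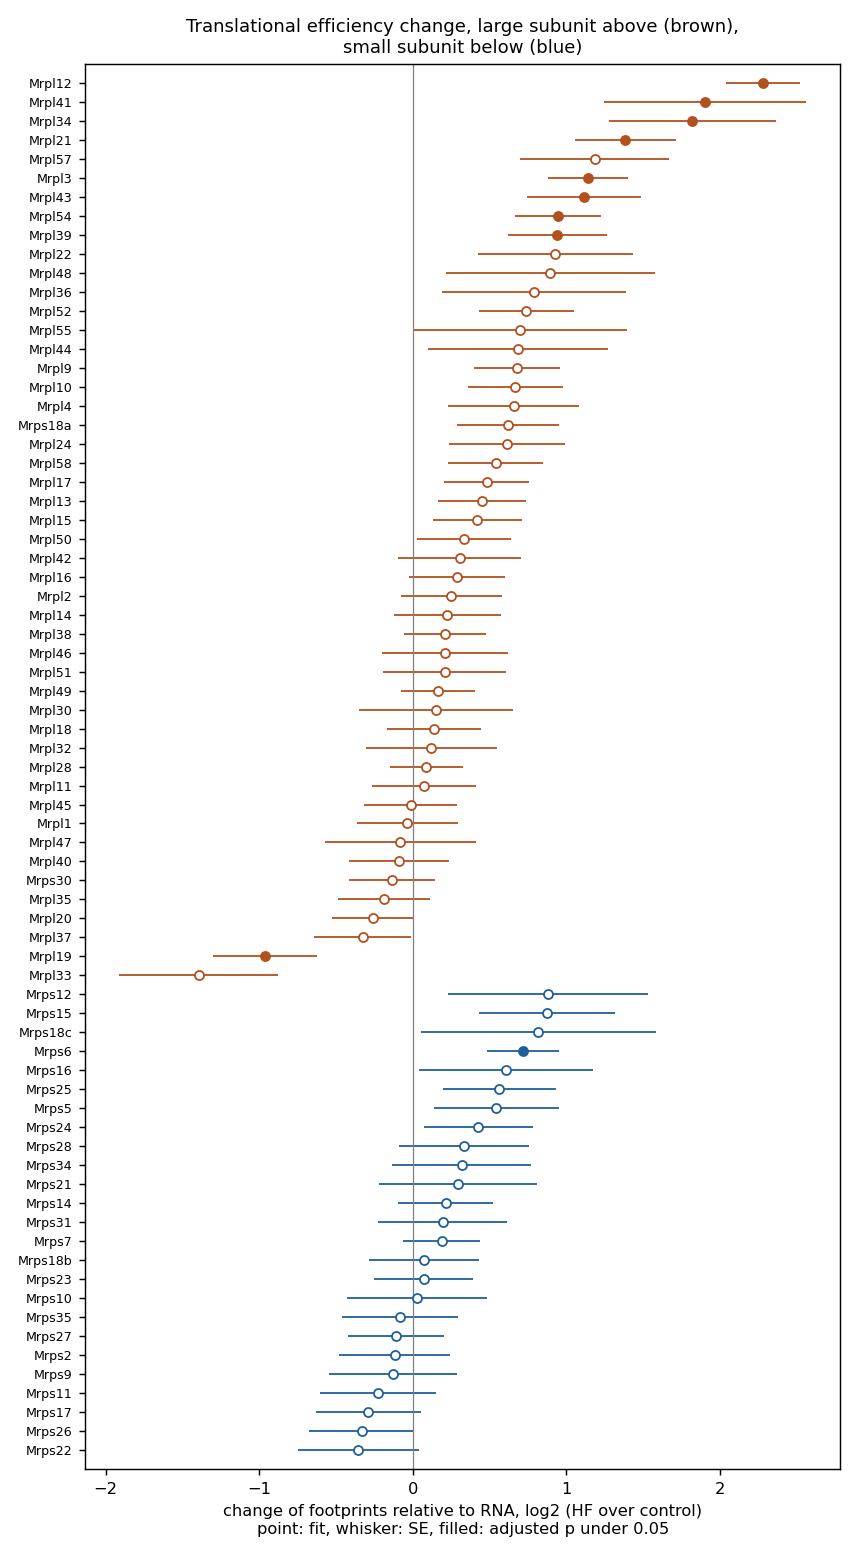
Each row is 1 of the 73 members tested, and the x axis gives the log2 change of footprints relative to RNA (HF over control) with its SE; filled points passed at an adjusted p under 0.05, the large subunit is above and the small subunit below. Mrpl12 has the highest value (2.28), 38 of 48 large subunit members and 17 of 25 small subunit members lie above 0, and Mrpl19 (-0.96) is the member that fell.

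Mrpl12 had the highest change of translational efficiency, 2.28 ± 0.24 on the log2 scale (SE; edgeR adjusted p = 6.02e-10), with footprints higher and RNA lower in each of 3 HF libraries. Mrpl21 (chr19:3282997-3292837), a large subunit protein with a bacterial counterpart, had 23.7, 23.6 and 33.6 CPM in HF RNA and 43.5, 70.5 and 41.0 CPM in control RNA. Its footprints were 119.3, 147.2 and 164.9 CPM in HF libraries and 113.5, 101.1 and 77.2 CPM in control libraries. The groups did not overlap in either assay, and the change of efficiency was 1.38 ± 0.33 (edgeR adjusted p = 0.00243). Mrpl3 (chr9:105053268-105077466), whose bacterial counterpart lies near the peptidyl transferase centre, had 50.1, 46.2 and 66.5 CPM in HF RNA and 81.3, 63.4 and 79.8 CPM in control RNA. Mrpl3 footprints were 172.1, 209.0 and 195.2 CPM in HF libraries and 118.0, 120.7 and 119.4 CPM in control libraries. The RNA groups overlapped and the footprint groups did not, and the change of efficiency was 1.14 ± 0.26 (edgeR adjusted p = 0.00163). The calls of Mrpl12, Mrpl21 and Mrpl3 held under each of 19 alternatives.

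The other 7 efficiency calls ended under at least 1 alternative. Mrpl34 (1.82 ± 0.54, SE; edgeR adjusted p = 0.0165) lost the call without RNA HF library 1 (1.47), RNA HF library 3 (1.61) or footprint HF library 1 (1.75). Mrpl54 (0.94) lost it without RNA HF library 3 (0.85) or RNA control library 1 (0.77). Mrpl41 (1.90 ± 0.66; edgeR adjusted p = 0.0426), whose RNA was 10.6, 7.86 and 7.06 CPM in HF libraries and 9.66, 22.5 and 15.8 CPM in control libraries, lost it without any 1 of 7 libraries (1.51 to 1.92). Those were RNA HF libraries 2 and 3, RNA control libraries 2 and 3, footprint HF library 3 and footprint control libraries 2 and 3. Mrpl43 (1.12) lost it without any 1 of 8 libraries (0.72 to 1.15), namely RNA HF libraries 1 and 2, the 3 RNA control libraries, footprint HF library 2 and footprint control libraries 1 and 3. Mrpl39 (0.94) lost it without any 1 of 8 libraries (0.69 to 1.00), namely RNA HF libraries 2 and 3, RNA control libraries 2 and 3, footprint HF library 1 and the 3 footprint control libraries. Mrps6 (0.72) lost it without any 1 of 8 libraries (0.60 to 0.73), namely RNA HF libraries 2 and 3, RNA control libraries 1 and 3, footprint HF libraries 1 and 2 and footprint control libraries 1 and 2. Mrpl19 (-0.96 ± 0.34; edgeR adjusted p = 0.0467), whose footprints were 69.8, 45.2 and 30.3 CPM in HF libraries and 81.5, 62.5 and 60.4 CPM in control libraries, lost it without any 1 of 8 libraries (-1.05 to -0.78). Those were RNA HF libraries 1 and 3, the 3 RNA control libraries, footprint HF libraries 2 and 3 and footprint control library 1. DESeq2 did not call Mrpl19 (adjusted p = 0.064). TMM factors over all 12 libraries ended the efficiency calls of Mrpl41 (1.83), Mrpl39 (0.87) and Mrps6 (0.65), and fitting without a filter those of Mrpl41 (1.86) and Mrpl39 (0.89).

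**Figure D4:**
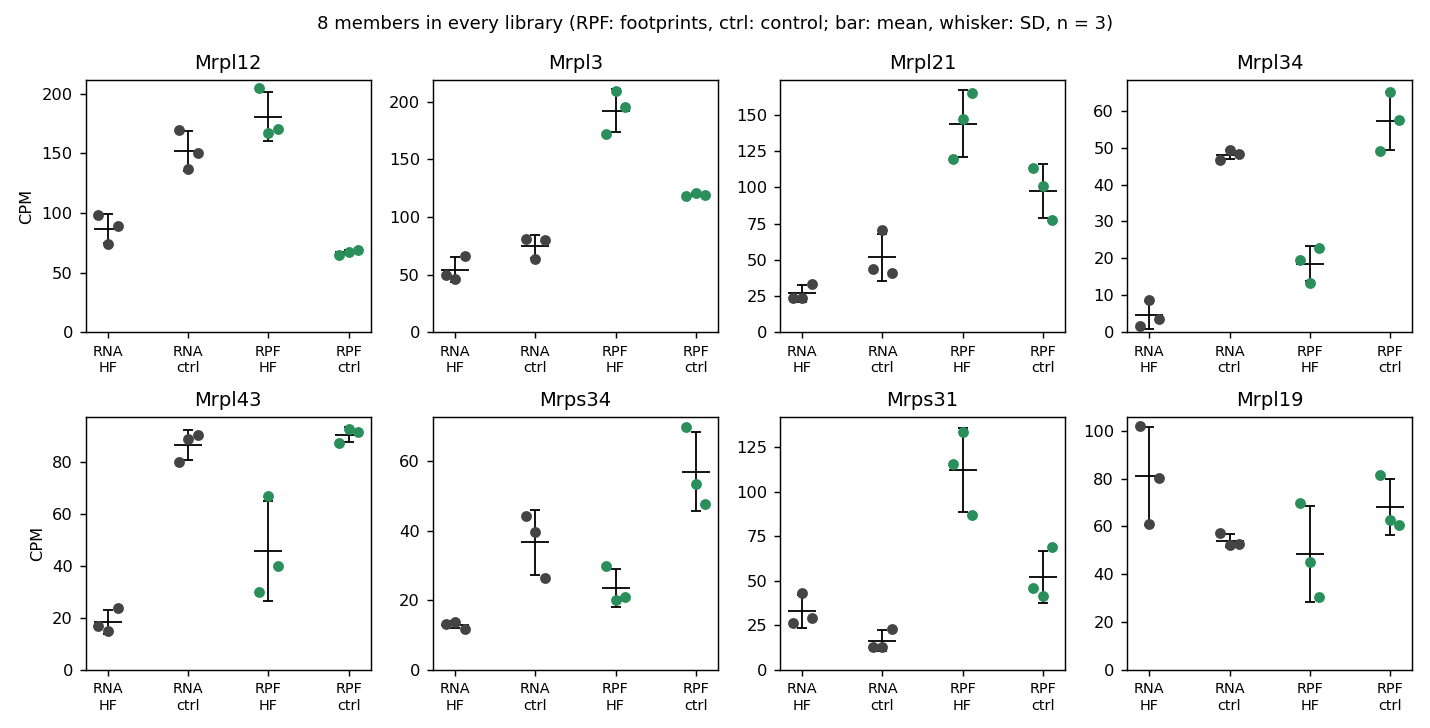
CPM (y axis, starting at 0) of 8 members in every library, with RNA in grey and footprints (RPF) in green, HF left of control; bars are means and whiskers SD (n = 3). Mrpl12 and Mrpl21 are lower in RNA and higher in footprints in HF, Mrpl34, Mrpl43 and Mrps34 are lower in both, and Mrps31 is higher in both.

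The ratio of footprint to RNA CPM of a member, on a log2 scale, had a median of 0.76 in HF cells and 0.29 in control cells over 73 members, beside 0.06 in HF cells and 0.04 in control cells over all 7933 genes tested. For the large subunit the median was 0.79 in HF cells and 0.35 in control cells, and for the small subunit 0.76 in HF cells and 0.19 in control cells. Each is a median within 1 condition, and a difference of 2 such medians is not the median change of the members. The median change in the efficiency fit was larger for the large subunit (0.38) than for the small subunit (0.19). For the ratios of footprint to RNA, CPM were scaled to all counts of a library, and a small constant was added to each group mean. They therefore differ slightly from ratios of the CPM given elsewhere. The RNA count may include untranslated parts of a transcript, so the ratio also reflects what part of a transcript is coding.

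Other components of the mitochondrial translation system were read from lists of genes with other symbols. Of 5 ribosomal proteins with other symbols, 1 rose and 1 fell in RNA (20% each), near the 22.2% and 21.4% of all features tested. Ptcd3, a pentatricopeptide protein of the small subunit, rose by 0.47 and Chchd1, also of the small subunit, fell by 1.56 on the log2 scale. In footprints, Aurkaip1 rose by 0.43, and Chchd1, Gadd45gip1 and Dap3 fell by 0.93, 0.87 and 0.71. These are 20% and 60% of the 5, against 22.4% and 20.9% of all genes tested. Dap3 binds GTP in the small subunit, and Gadd45gip1 belongs to the large subunit. In translational efficiency 1 of 5 rose and 0 fell by edgeR, with Aurkaip1 at 0.92 and 1 at an unadjusted p under 0.05. Over all genes tested, 6.35% rose and 8.03% fell.

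Of 23 assembly factors tested in RNA, 2 rose (8.70%) and 5 fell (21.7%), with a median log2 fold change of 0.07. The share that fell was near the 21.4% of all features tested, and the share that rose was below their 22.2%. The lowest were the rRNA methyltransferase Mrm2 (-2.84), the pseudouridine synthase homolog Rpusd3 (-1.76) and the GTPase Noa1 (-1.25), and those that rose were Rpusd4 (1.13) and Mterf3 (1.11). The values of Mrm2 and Rpusd3 rest on few counts. Mrm2 had 2, 2 and 2 RNA counts in HF libraries and 12, 10 and 12 in control libraries. Rpusd3 had 4, 6 and 10 in HF libraries and 20, 8 and 24 in control libraries. In footprints 3 of 22 rose (13.6%) and 1 fell (4.55%), both below the 22.4% and 20.9% of all genes tested. Tfb1m, an rRNA dimethyltransferase, was at 1.38 and Mpv17l2 at -1.28. In efficiency 1 of 21 rose (Noa1, 1.14) and 0 fell, with 4 at an unadjusted p under 0.05. Over all genes tested, 6.35% rose and 8.03% fell in efficiency. Of 12 mitochondrial translation factors and mRNA-binding proteins, 0 changed in RNA by edgeR, with 0 at an unadjusted p under 0.05. In footprints 0 of 12 rose and 3 fell (25%), against 22.4% and 20.9% of all genes tested. Those that fell were the initiation factor Mtif2 (-1.46), and Slirp (-0.998) and Lrpprc (-0.31), which form a complex on mitochondrial mRNA. In efficiency 0 of 12 changed, with 2 at an unadjusted p under 0.05.

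The mRNAs that mitochondrial ribosomes translate also had lower RNA levels in HF cells. Of 11 mitochondrially encoded mRNAs tested, 0 rose and 7 fell (63.6%), against 22.2% and 21.4% of all features tested. Their median log2 fold change was -0.51, beside -0.02 over all features tested. The complex I subunits mt-Nd5 (-0.90), mt-Nd1 (-0.76) and mt-Nd2 (-0.75) were the lowest that passed. Few footprints fell on these mRNAs, which cytosolic ribosomes do not translate. Their summed footprint level was 326 to 351 CPM in HF and 325 to 374 CPM in control libraries, against 3873 to 4703 CPM of RNA in HF and 6203 to 7039 CPM in control libraries. In footprints 0 of 7 rose and 1 fell (mt-Nd5, -0.77; 14.3%), against 22.4% and 20.9% of all genes tested. In efficiency 3 of 7 rose (42.9%) and 0 fell, against 6.35% and 8.03% of all genes tested. The median was 0.47, with 3 at an unadjusted p under 0.05. Those that rose were mt-Co1 (0.76), mt-Nd1 (0.69) and mt-Cytb (0.67). Their footprint changes did not pass (0.26, -0.08 and 0.15), while their RNA fell (-0.51, -0.76 and -0.50). A lower RNA value moves efficiency up by construction. As cytosolic ribosomes do not translate these mRNAs, the measure is not read as their translation.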

How the data were processed

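The deposited files hold raw counts per gene ID, with no header. The submitters' processing notes name HISAT2, Bowtie, HTSeq and the build GRCm38; roles, versions, strand setting and counted feature were not stated in the labels or files. Per the labels' protocols, total RNA was fragmented by alkaline hydrolysis, and footprints came from RNase I digestion and the monosome fraction. Gene symbols and types came from the name tables and RefSeq. Genes with low counts were removed with edgeR's filterByExpr (minimum count 10). RNA (all genes), footprints (protein-coding genes) and translational efficiency (an assay by treatment interaction) were each fitted with edgeR 4.0.16 in R 4.3.3, using TMM factors, the quasi-likelihood test and Benjamini-Hochberg adjustment over all features, with a threshold of 0.05. CPM are TMM-scaled over the features counted in each fit, except in the ratios of footprint to RNA CPM, which use all counts of a library. The procedure was tested on simulated counts. Alternatives were DESeq2 1.42.0, RLE and upper-quartile factors, no filter, counts halved, replicate blocks and leaving out each library. All members past the threshold are named; values in every library are given for up to 5 highest and 5 lowest called members a comparison with mean log2 CPM of at least 3 and for the stalk proteins; other members' values were chosen after being seen. For other gene lists, up to 3 called genes a direction are named, plus some chosen after values were seen. The members and lists were chosen with earlier results of these data known. No coding lengths were used here, so levels are not compared between genes. No 2 libraries of a group agreed within counting noise (chi-square per degree of freedom 2.26 to 4.45, or 1.13 to 2.22 with counts halved for the excess of even counts). Deviations of same-numbered libraries were not correlated above 0.1, between treatments or between assays, so numbers were not used as pairs.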

Additional observations from a re-analysis of the deposited data

How the results depend on the processing

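Of the calls of members, 12 of 19 in RNA, 13 of 24 in footprints and 3 of 10 in translational efficiency held under every alternative run for them. The number of members lower in RNA and lower in footprints stayed within 1.5 times its reported value under each alternative. Members higher in RNA numbered 2, against 1 with DESeq2 and 0 to 2 when single libraries were left out. Members higher in footprints numbered 12, against 7 to 11 when single libraries were left out. Members higher in efficiency numbered 9, against 4 to 8 when single libraries were left out. Members lower in efficiency numbered 1, against 2 without a filter, 0 with DESeq2, 2 with TMM over 12 libraries and 0 to 2 when single libraries were left out. The replicate block gave 2 higher and 18 lower members in RNA, 11 and 12 in footprints, and 7 and 2 in efficiency; it did not call Mrpl41 in footprints (0.97), or Mrpl41 (1.83) and Mrpl39 (0.93) in efficiency. Correlations of same-numbered libraries were -0.009 to 0.014 between treatments and -0.030 to 0.017 between assays, so the numbers do not pair the samples. The log2 ratio of large to small subunit footprints, 0.26, was 0.31 from mean log2(CPM + 1) and 0.39 without members that overlap another gene. In RNA that last setting gave 0.16, against 0.07. Leaving out overlapping members and assigning subunits by symbol were chosen after seeing the data. Mrpl11, not called, changed sign in efficiency with counts halved (-0.013, against 0.07), and without single libraries it ranged over -0.21 to 0.34 in efficiency and -0.46 to 0.077 in footprints. The cause was not tested. The median SE over members was 0.27 in RNA, 0.23 in footprints and 0.35 in efficiency, so changes of well under 2-fold in a member were often not detectable at this depth.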
